A study of Mus with 21 samples.

Results

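The genes described here encode the proteins that put cohesin on chromatin and take it off: Nipbl and Mau2, the subunits of the loader, and Wapl, Pds5a and Pds5b, which act in release. They were chosen as the rows of the count table whose gene name was one of these 5 symbols. All 5 were found, each on 1 row, among 55335 genes listed, and all 5 passed the filter on low counts that left 30534 genes for testing.

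Cohesin is a ring-shaped complex that holds sister chromatids together and extrudes chromatin loops in interphase. NIPBL, bound to MAU2, loads the ring and drives loop extrusion, whereas WAPL, bound to PDS5A or PDS5B, opens it and releases it from DNA. Heterozygous loss of NIPBL is the commonest known genetic cause of Cornelia de Lange syndrome, a developmental disorder that affects the brain, limbs and growth.

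RNA-seq counts were analysed from the whole brains of 21 female embryos at E17.5. The WT group (Wapl +/+; Nipbl +/+) had 5 embryos, the Nipbl+/- group (Wapl +/+) had 3, the WaplΔ/+ group (Nipbl +/+) had 7, and the double heterozygotes, which carried both mutations, had 6. The labels write the mutant Nipbl allele as delta. The WaplΔ allele lacks the promoter and exons 1 and 2 and was made with E2a-Cre, a transgene active in the early embryo. The Nipbl mutant allele was made from a floxed allele in the sire's germ line with Stra8-icre, which is active in premeiotic male germ cells. All groups, WT included, were bred on a C57BL/6J background, and the labels tie no embryo to a litter. The Wapl allele was first made in embryonic stem cells of another strain and then backcrossed to C57BL/6J. Whether sequence of that strain remained near Wapl is not given. The count table gives 1 value per gene and embryo, with no separation of mutant and wild-type alleles. The study compared these groups to ask whether lowering Wapl, which releases cohesin, offsets lowered Nipbl, which loads it.

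Library totals ranged from 25682566 to 35818767 counts (median 31830396). The libraries fell into 2 sets by the mitochondrial gene mt-Nd3, with 52 to 106 counts in 9 libraries and 0 to 6 counts in the other 12. The high set held 2 of 5 WT, 0 of 3 Nipbl+/-, 5 of 7 WaplΔ/+ and 2 of 6 double heterozygous libraries. Among embryos with the Wapl deletion, the low set was also the set whose labels write the deletion before the + sign (2 WaplΔ/+ and 4 double heterozygotes), so these properties cannot be told apart. The paper bred its embryos by 2 crosses, in which the deletion came from the dam or from the sire. The sample titles do not name the cross of an embryo. Defining neuronal markers were present in every group: the summed level of 6 neuronal genes ranged from 4961 to 5638 CPM over all libraries. CPM is the read count divided by the library size, scaled with TMM factors.

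Nipbl transcript fell to 54.0% of its WT level in Nipbl+/- brains and to 55.2% in double heterozygotes, and was at 98.1% in WaplΔ/+ brains. Nipbl (ENSMUSG00000022141.7; chromosome 15, 8289824 to 8465315, GRCm38.p6) encodes the large loader subunit and was one of the 2 mutated genes, so its level is also a check of the genotype labels. In WT embryos 1 to 5 it stood at 76.3, 68.2, 64.2, 64.9 and 70.6 CPM, and in Nipbl+/- embryos 1 to 3 at 36.1, 35.1 and 40.9 CPM. The WaplΔ/+ libraries ranged from 62.2 to 71.3 CPM with a median of 67.9 CPM. The double heterozygotes ranged from 36.1 to 39.5 CPM with a median of 37.7 CPM. No library with a mutant Nipbl allele overlapped any library without one. The means were 68.8 ± 4.93 (SD, n = 5) in WT, 37.4 ± 3.11 (SD, n = 3) in Nipbl+/-, 67.4 ± 3.15 (SD, n = 7) in WaplΔ/+ and 37.7 ± 1.23 CPM (SD, n = 6) in double heterozygotes. In the edgeR quasi-likelihood test, with Benjamini-Hochberg adjustment over all genes tested and a call at an adjusted P below 0.10, Nipbl was lower in Nipbl+/- than in WT by a log2 fold change of -0.89 (SE 0.0589, adjusted P = 2.03e-07). The 95% interval of its level was 49.6 to 58.9% of WT. In bulk tissue, fewer cells of an expressing type and less RNA per cell cannot be told apart, and this holds for every level given here. In double heterozygotes the interval was 51.8 to 58.7%, with an adjusted P of 4.79e-10 in the edgeR test.

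The added Wapl deletion left no detectable difference in Nipbl: double heterozygotes stood at 101% of the Nipbl+/- level, with a 95% interval of 93.5 to 110% (edgeR adjusted P = 0.987). Nor was Nipbl called in WaplΔ/+ against WT (95% interval 92.3 to 104%, edgeR adjusted P = 0.809). The order of Nipbl levels was therefore WT, WaplΔ/+, double heterozygous and Nipbl+/-, in which the first pair and the last pair did not differ beyond their spread.

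**Figure D1:**
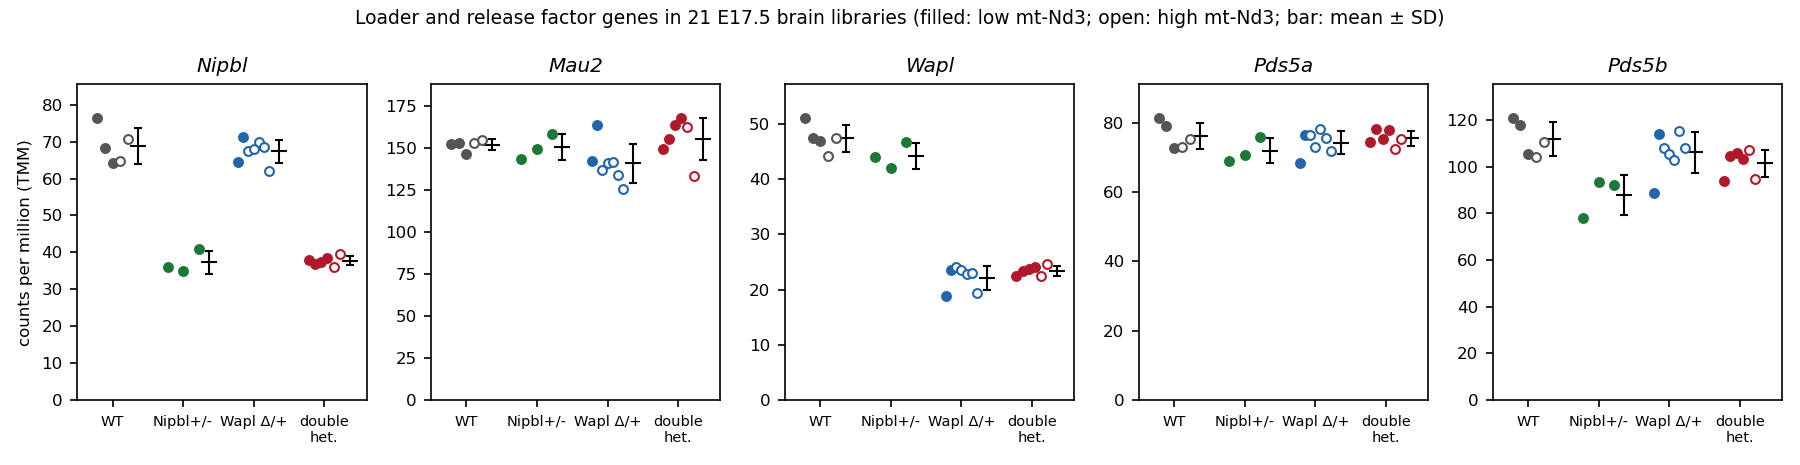
Level in CPM (TMM-scaled, axis from 0) of the 5 genes in each of the 21 libraries, by genotype; filled points are libraries with low mt-Nd3 counts, open points those with high counts, and bars give mean ± SD. Nipbl is at 35.1 to 40.9 CPM in the Nipbl+/- and double heterozygous libraries, Wapl is at 18.8 to 24.6 CPM in the WaplΔ/+ and double heterozygous libraries, and the 3 Nipbl+/- libraries lie below all 5 WT libraries for Pds5b.

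Mau2 (ENSMUSG00000031858.16; chromosome 8, 70014527 to 70042734), the partner without which the loader protein is unstable, did not move with Nipbl. It stood at 143.6, 149.9 and 158.7 CPM in the 3 Nipbl+/- libraries, against 147 to 155 CPM in WT. The means were 152 ± 3.12 (SD, n = 5) in WT, 151 ± 7.56 (SD, n = 3) in Nipbl+/-, 141 ± 11.8 (SD, n = 7) in WaplΔ/+ and 156 ± 12.7 CPM (SD, n = 6) in double heterozygotes. Against WT, the 95% interval of the Nipbl+/- level was 93.2 to 104% (edgeR adjusted P = 0.836). Mau2 was not called in any of the 6 pairwise comparisons. Its spread was wider in the libraries with the Wapl deletion, with ranges of 126 to 164 CPM in WaplΔ/+ and 133 to 168 CPM in double heterozygotes. In WaplΔ/+ against WT the log2 fold change was -0.11 (SE 0.0456, edgeR adjusted P = 0.258), and it was 0.03 within the low mt-Nd3 libraries and -0.18 within the high ones. Without WaplΔ/+ replicate 2, the library at 164 CPM, it was -0.15 and passed the threshold (edgeR adjusted P = 0.0204).

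The number of Nipbl reads per Mau2 read was accordingly lower with the Nipbl mutation. This ratio of counts within a library was 0.452 ± 0.0290 (SD, n = 5) in WT and 0.248 ± 0.0123 (SD, n = 3) in Nipbl+/-. It was 0.479 ± 0.0270 (SD, n = 7) in WaplΔ/+ and 0.244 ± 0.0278 (SD, n = 6) in double heterozygotes. The genes differ in length, so the ratios can be compared between groups but say nothing of which transcript is the more abundant. All 6 double heterozygotes were below all 5 WT libraries (exact permutation test, two-sided, P = 0.00433, adjusted P = 0.0148 over 24 ratio tests). The same held for the 3 Nipbl+/- libraries, where 0.0357 is the smallest P that the exact test can give (adjusted P = 0.0504). Both separations follow from the Nipbl genotype.

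Wapl transcript was at 46.8% of its WT level in WaplΔ/+ and at 49.7% in double heterozygotes. Wapl (ENSMUSG00000041408.18; chromosome 14, 34672379 to 34747983) encodes the releasing factor itself. It stood at 51.0, 47.5, 46.9, 44.1 and 47.5 CPM in WT embryos 1 to 5 and at 44.0, 41.9 and 46.7 CPM in Nipbl+/- embryos 1 to 3. The WaplΔ/+ libraries ranged from 18.8 to 24.0 CPM (median 22.9 CPM), and the double heterozygotes from 22.4 to 24.6 CPM (median 23.5 CPM). No library with the deletion overlapped any library without it. In WaplΔ/+ the 95% interval of the level was 43.2 to 50.8% of WT (log2 fold change -1.09, SE 0.0556, edgeR adjusted P = 4.12e-10). In double heterozygotes it was 46.8 to 52.7% (log2 fold change -1.01, SE 0.0413, edgeR adjusted P = 2.21e-11). Wapl did not differ detectably between double heterozygotes and WaplΔ/+, at 106% with a 95% interval of 97.5 to 115% (edgeR adjusted P = 0.678).

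In Nipbl+/- brains Wapl was at 92.8% of WT, with a 95% interval of 86.5 to 99.6%, and this did not pass the test across all genes (edgeR adjusted P = 0.218). The order of Wapl levels was WT, Nipbl+/-, double heterozygous and WaplΔ/+, and again only the step between the second and the third exceeded the spread. Within WaplΔ/+, Wapl was at 18.8 and 23.5 CPM in the 2 embryos whose labels write the deletion first and between 19.4 and 24.0 CPM in the 5 that write it second. These ranges overlapped, and so did those of the double heterozygotes, at 22.4 to 24.1 CPM (n = 4) and 22.4 and 24.6 CPM (n = 2).

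The ratio of the releasing factor to the loader was above WT in Nipbl+/-, below WT in WaplΔ/+ and closest to WT in the double heterozygotes. The ratio of Wapl to Nipbl counts was 0.690 ± 0.0254 (SD, n = 5) in WT. It was 1.19 ± 0.0399 (SD, n = 3) in Nipbl+/-, which is 172% of WT, and 0.328 ± 0.0215 (SD, n = 7) in WaplΔ/+, which is 47.6% of WT. In double heterozygotes it was 0.620 ± 0.0152 (SD, n = 6), or 89.9% of WT.

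The double heterozygotes did not reach the WT ratio. They read 0.591, 0.633, 0.631, 0.625, 0.621 and 0.622, against 0.669, 0.696, 0.731, 0.681 and 0.673 in WT. Every double heterozygous library was below every WT library (log2 difference -0.15, exact permutation P = 0.00433, the smallest it can give, adjusted P = 0.0148). The log2 difference was -0.17 within the low mt-Nd3 libraries and -0.12 within the high ones. All 6 pairs of groups were separated without overlap in this ratio, and 5 of the 6 differences had an adjusted P below 0.05. The exception was Nipbl+/- against WT, where 3 against 5 libraries cannot give an exact P below 0.0357 (adjusted P = 0.0504). Apart from double heterozygotes against WT, the groups of each pair carry mutations that shift this ratio, so their separation follows from the genotypes.

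**Figure D2:**
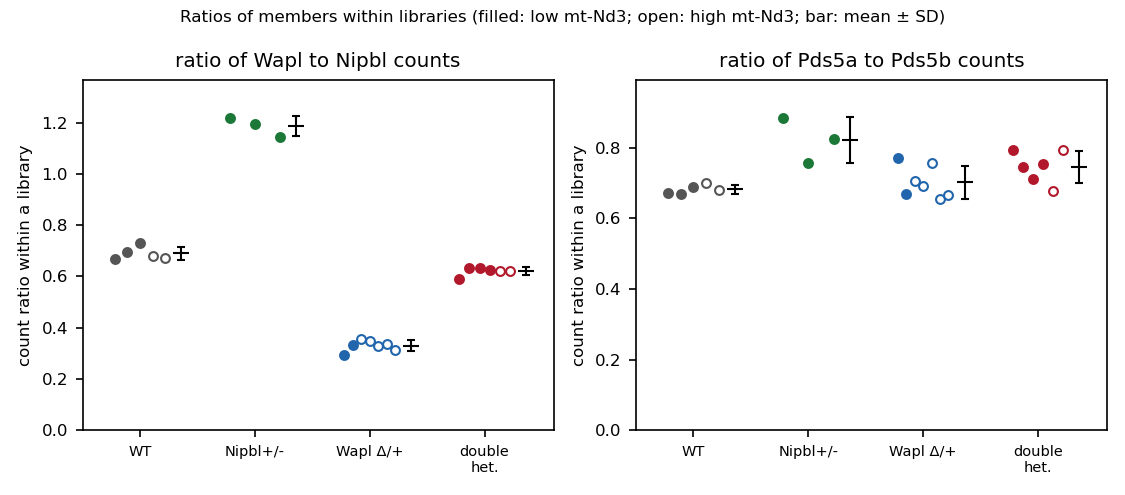
Ratio of Wapl to Nipbl counts (left) and of Pds5a to Pds5b counts (right) within each library, by genotype, with axes from 0; filled points are low and open points high mt-Nd3 libraries, and bars give mean ± SD. The double heterozygotes (0.591 to 0.633) sit just under WT (0.669 to 0.731) for Wapl to Nipbl, far from the Nipbl+/- and WaplΔ/+ libraries on either side.

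Pds5b was the only other of the 5 genes called in a comparison with WT. Pds5b (ENSMUSG00000034021.15; chromosome 5, 150673713 to 150810669) encodes a ring-associated protein that helps WAPL open cohesin and that also helps acetylated cohesin stay on chromatin. It stood at 120.7, 117.8, 105.5, 104.1 and 110.6 CPM in WT embryos 1 to 5 and at 77.9, 93.4 and 92.0 CPM in Nipbl+/- embryos 1 to 3. All 3 Nipbl+/- libraries were below all 5 WT libraries. The Nipbl+/- level was 78.2% of WT, with a 95% interval of 71.8 to 85.2% (log2 fold change -0.35, SE 0.0590, edgeR adjusted P = 0.00113). Within the low mt-Nd3 libraries, 3 against 3, the log2 fold change was -0.39 (edgeR adjusted P = 0.00735). Thus 2 of the 5 genes were called in Nipbl+/- against WT, where 11.2% of all genes tested were called. The call of Nipbl follows from the genotype, and the other was Pds5b, so the count is no result about the 5 genes as a set. The median log2 fold change of the 5 was -0.11, against -0.01 over all genes tested.

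Pds5b was intermediate in the double heterozygotes, without a call against either neighbour. They ranged from 93.8 to 107 CPM (median 104 CPM), which overlapped WT and lay entirely above the Nipbl+/- libraries. Against WT the level was 91.5% (95% interval 85.4 to 98.1%, edgeR adjusted P = 0.218). Without double heterozygote 5, the library at 107 CPM, the adjusted P was 0.0566, which passes the threshold. Against Nipbl+/- the level was 116% (95% interval 105 to 128%, edgeR unadjusted P = 0.0049, adjusted P = 0.971). Only 2 of all genes tested were called in that comparison. In WaplΔ/+ the range was 88.5 to 115 CPM (median 108 CPM), at 95.2% of WT with a 95% interval of 88.4 to 103% (edgeR adjusted P = 0.550). The order of Pds5b levels was WT, WaplΔ/+, double heterozygous and Nipbl+/-, and no step between neighbours in that order was called.

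Markers of several cell types also differed between Nipbl+/- and WT brains, in a comparison where 11.2% of all genes tested were called. Of the marker lists, 3 of 4 astrocyte genes (Slc1a3, Aldh1l1 and Aqp4), 2 of 3 oligodendrocyte lineage genes (Pdgfra and Sox10) and 3 of 5 microglial genes (Csf1r, P2ry12 and Cx3cr1) were called lower than in WT by edgeR. By contrast, 3 of 5 progenitor genes (Sox2, Nes and Eomes) and 2 of 5 genes of cycling cells (Cdk1 and Birc5) were higher. Of the other lists, 1 of 6 neuronal genes (Snap25) was lower and 1 of 4 meningeal genes was higher. No blood, choroid plexus, endothelial, pituitary or liver marker was called. The summed astrocyte level was 380 to 411 CPM in WT and 273 to 347 CPM in Nipbl+/-, and the summed progenitor level was 257 to 279 and 264 to 346 CPM. The microglial sum was 60.5 to 71.7 and 50.1 to 57.5 CPM, and the oligodendrocyte lineage sum was 110 to 120 and 74.7 to 94.7 CPM. None of these markers was at 0 in either group. Their part in the Pds5b difference was not tested. In double heterozygotes against WT, where 3.28% of all genes tested were called, 7 of the 52 markers were lower and 2 were higher. The lower ones included 3 of 4 astrocyte and 3 of 3 oligodendrocyte lineage genes.

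Pds5a (ENSMUSG00000029202.12; chromosome 5, 65605719 to 65698236), the paralog of Pds5b, was called in no comparison. Its means were 76.3 ± 3.80 (SD, n = 5) in WT, 71.9 ± 3.604 (SD, n = 3) in Nipbl+/-, 74.3 ± 3.35 (SD, n = 7) in WaplΔ/+ and 75.6 ± 2.16 CPM (SD, n = 6) in double heterozygotes. The lowest and the highest of all libraries were 68.4 and 81.3 CPM, so the groups overlapped throughout. Against WT the 95% intervals were 87.8 to 100% in Nipbl+/-, 92.5 to 103% in WaplΔ/+ and 94.5 to 105% in double heterozygotes (edgeR adjusted P = 0.279, 0.715 and 0.979).

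The balance of the paralogs shifted accordingly. The ratio of Pds5a to Pds5b counts was 0.683 ± 0.0123 (SD, n = 5) in WT and 0.823 ± 0.0646 (SD, n = 3) in Nipbl+/-. Its values in the latter were 0.886, 0.757 and 0.826, each above the highest WT value of 0.701 (exact permutation P = 0.0357, the smallest it can give, adjusted P = 0.0504). In double heterozygotes it was 0.746 ± 0.0461 (SD, n = 6), higher than in WT though with overlapping libraries (exact permutation P = 0.0216, adjusted P = 0.0440). In WaplΔ/+ it was 0.703 ± 0.0463 (SD, n = 7), with an adjusted exact permutation P of 0.456 against WT.

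Wapl reads per read of its PDS5 partners followed Wapl. The ratio of Wapl to the sum of Pds5a and Pds5b was 0.252 ± 0.00811 (SD, n = 5) in WT, 0.123 ± 0.00811 (SD, n = 7) in WaplΔ/+ and 0.132 ± 0.00698 (SD, n = 6) in double heterozygotes. Both groups with the deletion lay entirely below WT, which follows from the genotype (exact permutation, adjusted P = 0.0148 for each). In Nipbl+/- it was 0.278 ± 0.0221 (SD, n = 3), with a range of 0.256 to 0.300 that overlapped the WT range of 0.241 to 0.263 (exact permutation P = 0.0714, adjusted P = 0.0902).

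Outside Nipbl+/- against WT, the calls among the 5 genes were those of the mutated genes alone. Such calls follow from the genotypes, so the counts below are no result about the 5 genes as a set. In WaplΔ/+ against WT 1 of 5 was called (Wapl), where 2.21% of all genes tested were called. In double heterozygotes against WT 2 of 5 were called (Nipbl and Wapl), where 3.28% were. These 3 comparisons share the 5 WT libraries. With the mt-Nd3 set as a term, 7.94% of genes were called in Nipbl+/-, 0.999% in WaplΔ/+ and 3.33% in double heterozygotes. Within the low set, on fewer libraries, the shares were 6.14%, 0.154% and 2.2%. Within the high set they were 0.91% in WaplΔ/+ and 0.00328% in double heterozygotes. The shares over all genes moved with single libraries: leaving out 1 at a time, they ran from 5.99% (without Nipbl+/- replicate 1) to 15.7% (without Nipbl+/- replicate 2) in Nipbl+/-, from 0.0295% (without WT replicate 2) to 5.02% (without WaplΔ/+ replicate 2) in WaplΔ/+, and from 1.49% (without WT replicate 4) to 8.21% (without double heterozygote 5) in double heterozygotes.

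Between double heterozygotes and Nipbl+/-, Wapl was one of only 2 genes called in the whole table (0.00655% of those tested), at a log2 fold change of -0.91 (SE 0.0511, edgeR adjusted P = 2.29e-07); 1256 genes had an unadjusted P below 0.05. The other, named because the count was so small, was the protocadherin gene Pcdhb17, at 13.9 CPM in double heterozygotes and 9.99 CPM in Nipbl+/- (log2 fold change 0.48, edgeR adjusted P = 0.0671). Wapl stayed called under every alternative run and without each library, whereas Pcdhb17 was no longer called in 6 of 9 leave-one-out fits, where 1 gene remained. The whole-table count was 5 with DESeq2 and 55 with the replicate block. Between double heterozygotes and WaplΔ/+, Nipbl was the 1 member called, at a log2 fold change of -0.83 (SE 0.0393, edgeR adjusted P = 1.37e-10), where 1.04% of genes were called. That share was 0.531% with the mt-Nd3 set as a term and, on fewer libraries, 0.0622% in the low and 0.095% in the high set. Directly between the single heterozygotes, Nipbl in Nipbl+/- was at 55.4% of its WaplΔ/+ level and Wapl at 199.5%, with edgeR adjusted P of 8.16e-07 and 1.10e-06, where 1.18% of genes were called. Pds5b was lower there by a log2 fold change of -0.28, which missed the threshold (edgeR adjusted P = 0.113) but passed it under 4 of 9 other settings. The share of genes called between the single heterozygotes fell to 0.108% with the mt-Nd3 set as a term. Within the low set it was 0.0262%, on 3 Nipbl+/- and 2 WaplΔ/+ libraries.

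**Figure D3:**
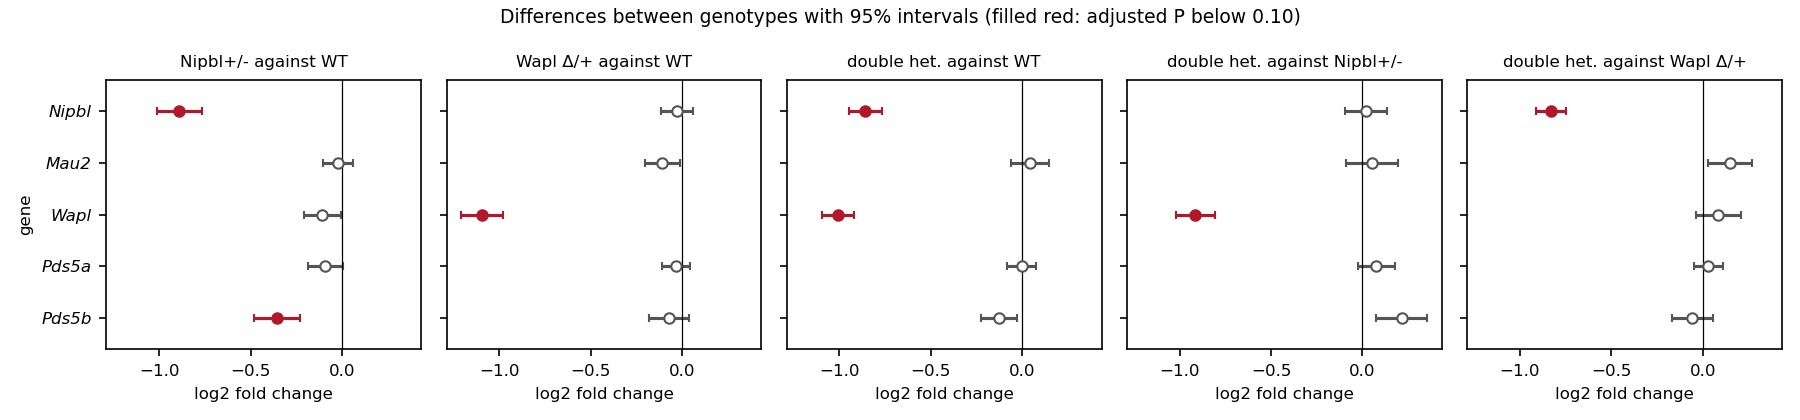
Log2 fold change of each of the 5 genes (horizontal axis) in 5 comparisons of genotypes, with 95% intervals from the edgeR fits; filled red points have an adjusted P below 0.10. Nipbl and Wapl lie between -0.83 and -1.09 wherever one group carries the mutation and the other does not, and Pds5b is called only in Nipbl+/- against WT, at -0.35.

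Whether the mutations combined as the product of their separate effects was tested as an interaction term in a fit of all 4 groups. Called genes made up 0% of those tested by the edgeR test at an adjusted P below 0.10, while 3940 genes had an unadjusted P below 0.05 and the DESeq2 test called 810. Leaving out WaplΔ/+ replicate 2 or double heterozygote 6 raised the edgeR count from 0 to 309 or 480 genes. None of the 5 genes was called in edgeR, and 2 (Wapl and Pds5b) had an unadjusted P below 0.05. The interaction was closest to 0 for Nipbl (log2 0.04, SE 0.0695, edgeR adjusted P = 0.858). It was 0.18 for Wapl (SE 0.0822, edgeR adjusted P = 0.357), 0.16 for Mau2 (SE 0.0832, edgeR adjusted P = 0.439) and 0.11 for Pds5a (SE 0.0580, edgeR adjusted P = 0.439). For Pds5b it was 0.28 (SE 0.0886, edgeR adjusted P = 0.223), so double heterozygotes read above the product of the single effects without passing the threshold. DESeq2 gave 0.29 for Pds5b with an adjusted P of 0.0717, which passes it.

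The 18 other genes of the cohesin pathway that were listed were all tested. In Nipbl+/- against WT 2 were higher, 1 was lower and 15 were not called, with a median log2 fold change of 0.06. Over all genes tested 11.2% were called in this comparison, 4.22% higher and 6.97% lower, so a count of 3 among 18 is near the background and is no result about the list. The gene that was lower was Stag2, which encodes one of the alternative STAG subunits of the ring, at 61.4 ± 2.04 (SD, n = 3) against 68.4 ± 5.72 CPM (SD, n = 5) in WT (log2 fold change -0.16, edgeR adjusted P = 0.0810). The higher ones were Espl1, which encodes separase, the protease that cuts the ring at anaphase, and Plk1, a mitotic kinase that promotes the removal of cohesin from chromosome arms. Espl1 stood at 18.4 ± 2.52 against 15.2 ± 0.599 CPM (log2 fold change 0.27, edgeR adjusted P = 0.0302), and Plk1 at 17.1 ± 1.94 against 14.0 ± 0.432 CPM (log2 fold change 0.28, edgeR adjusted P = 0.0152), with n = 3 and 5. The cycling-cell markers Cdk1 and Birc5 were higher in the same comparison, and their part in the Espl1 and Plk1 differences was not tested.

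In WaplΔ/+ against WT 0 of the 18 were called by the edgeR test across all genes, 4 had an unadjusted P below 0.05, and DESeq2 called 3 (Stag1, Espl1 and Plk1). Their directions differed: the edgeR log2 fold change was -0.12 for Stag1, 0.25 for Espl1 and 0.23 for Plk1. Over all genes tested edgeR called 2.21% there and DESeq2 4.75%. In double heterozygotes against WT 1 of the 18 was called, where 3.28% of all genes tested were, so the count is no result about the list. That gene was Stag1, the alternative to Stag2, and it was higher. Stag1 stood at 68.0 ± 3.84 (SD, n = 5) in WT, 73.4 ± 4.29 (SD, n = 3) in Nipbl+/-, 62.2 ± 3.51 (SD, n = 7) in WaplΔ/+ and 75.4 ± 2.21 CPM (SD, n = 6) in double heterozygotes. All 6 double heterozygotes, at 74.0 to 79.8 CPM, lay above the highest WT library at 73.5 CPM (log2 fold change 0.16, SE 0.0394, edgeR adjusted P = 0.0421) and above the highest WaplΔ/+ library at 66.2 CPM (log2 fold change 0.28, SE 0.0406, edgeR adjusted P = 0.000973). Among the rest, Smc1a, Smc3 and Rad21, the core of the ring, and Ctcf, the factor at which loop extrusion stops, were called in no comparison.

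**Figure D4:**
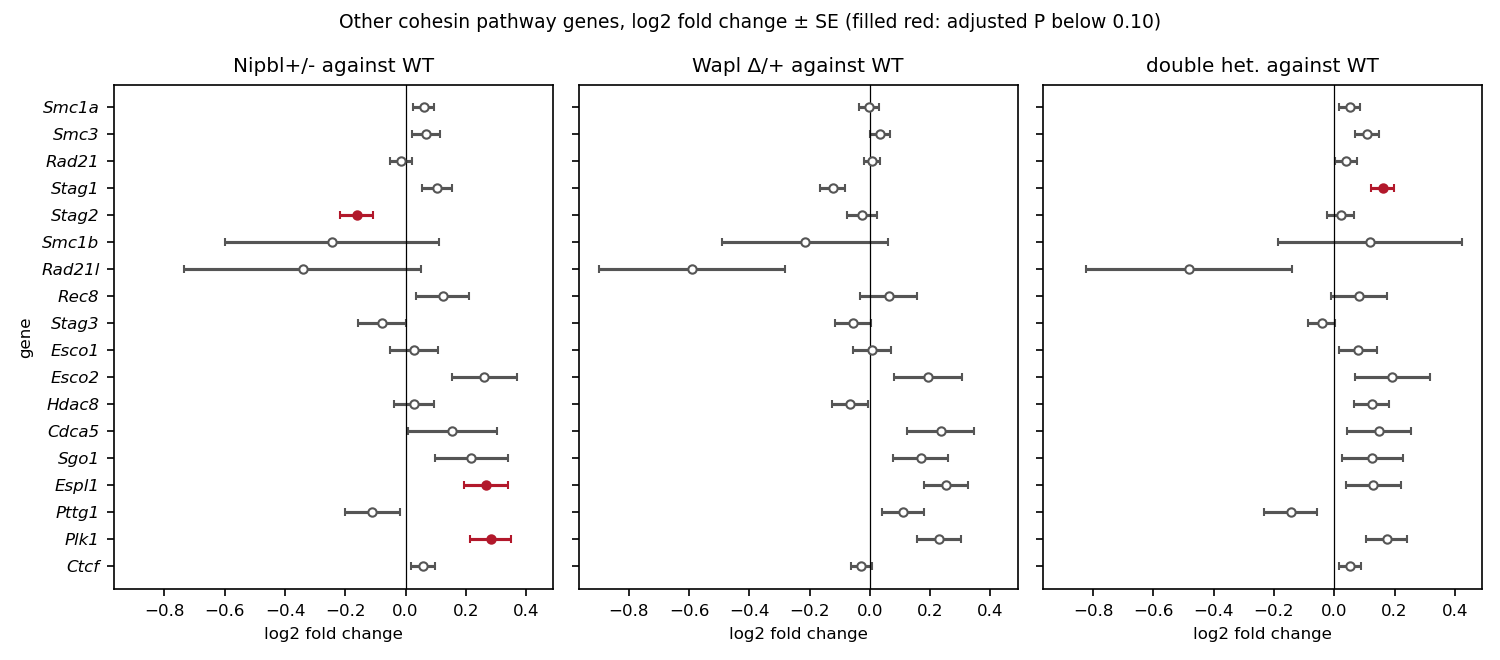
Log2 fold change ± SE (horizontal axis) of 18 other cohesin pathway genes in each mutant group against WT, from the edgeR fits; filled red points have an adjusted P below 0.10. The called genes are Stag2 (-0.16), Espl1 (0.27) and Plk1 (0.28) in Nipbl+/- and Stag1 (0.16) in double heterozygotes, and edgeR called none in WaplΔ/+.

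Genes that start within 500 kb of a member were also read, as annotated by RefSeq on GRCm38.p6. Near Wapl, 15 neighbours were tested, and 3 were lower in WaplΔ/+ than in WT. Over all genes tested 1.44% were called lower in this comparison and 2.21% in either direction. The noncoding gene 5830448L01Rik lies inside the Wapl span on chromosome 14, from 34672971 to 34674668, that is 0.592 to 2.289 kb from its lower-coordinate end. It was at 1.14 to 1.68 CPM in WT, 1.27 to 1.64 CPM in Nipbl+/-, 0.435 to 0.697 CPM in WaplΔ/+ and 0.402 to 0.852 CPM in double heterozygotes, so that the groups with and without the deletion did not overlap. Its log2 fold change was -1.18 in WaplΔ/+ (SE 0.155, edgeR adjusted P = 0.00318) and -1.01 in double heterozygotes (SE 0.179, edgeR adjusted P = 0.00558), on 12 to 59 counts per library. DESeq2 called it in double heterozygotes (adjusted P = 0.000247) and gave it no adjusted P in WaplΔ/+. Whether counting used the strand is not given in the sources used here, so reads of Wapl and of this gene may not have been told apart. By the paper's coordinates, the deleted fragment takes in this gene if the main Wapl transcription start is that lower-coordinate end. The position of that start was not read here, so this was not tested.

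The noncoding gene A930038B10Rik, 12.2 kb beyond the other end of Wapl, was lower too, by log2 fold changes of -0.83 in WaplΔ/+ and -0.71 in double heterozygotes (edgeR adjusted P = 0.0964 and 0.0899), with 8 to 43 counts per library and overlapping groups. DESeq2 gave it no adjusted P in either comparison. Gprin2, 471 kb away, was lower in WaplΔ/+ (log2 fold change -0.39, edgeR adjusted P = 0.0380) and in Nipbl+/- (-0.26, 0.0143). In Nipbl+/- against WT the other called neighbours of Wapl were Glud1 and Grid1, lower, and Mmrn2, higher. With Gprin2 these were 4 of the 15, where 11.2% of all genes tested were called. In double heterozygotes against WT 2 of the 15 were called, 5830448L01Rik and A930038B10Rik, where 3.28% of all genes tested were. Near Wapl, the deletion and any sequence left from the stem cell strain cannot be told apart.

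Near Nipbl, 10 neighbours were tested against WT, where 11.2% of all genes tested were called in Nipbl+/- and 3.28% in double heterozygotes. The one called was Slc1a3, 169 kb away, the astrocyte and radial glial glutamate transporter gene. It was at 250 to 270 CPM in WT, 188 to 224 CPM in Nipbl+/- and 196 to 242 CPM in double heterozygotes, below every WT library in both (log2 fold change -0.37 and -0.26, edgeR adjusted P = 0.000207 and 0.0106). Slc1a3 is also one of the astrocyte markers that were lower in these groups together with Aldh1l1 and Aqp4, which lie elsewhere in the genome; the part of astrocyte number was not tested. Near Mau2, 7 of 46 neighbours tested (Gmip, Lpar2, Pbx4, Gatad2a, Slc25a42, Homer3 and Ddx49) were higher in Nipbl+/- than in WT, by log2 fold changes of 0.10 to 0.22, where 4.22% of all genes tested were called higher and 11.2% in either direction. Near Pds5a, 1 of 15 was called, Ugdh, higher in double heterozygotes (log2 fold change 0.14, edgeR adjusted P = 0.0859). Over all genes tested 0.812% were called higher there and 3.28% in either direction. Near Pds5b 0 of 12 were called by the edgeR test in the comparisons with WT, with at most 1 at an unadjusted P below 0.05 in each, and DESeq2 called 1, N4bp2l2, in WaplΔ/+. The small RNA pseudogenes that overlap Pds5a (Gm24399) and Pds5b (Gm24630 and Gm26013) had at most 2 counts in a library. Gm40353 and LOC102634078, annotated over Pds5b and Nipbl, had no row in the table that could be matched by name.

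**Figure D5:**
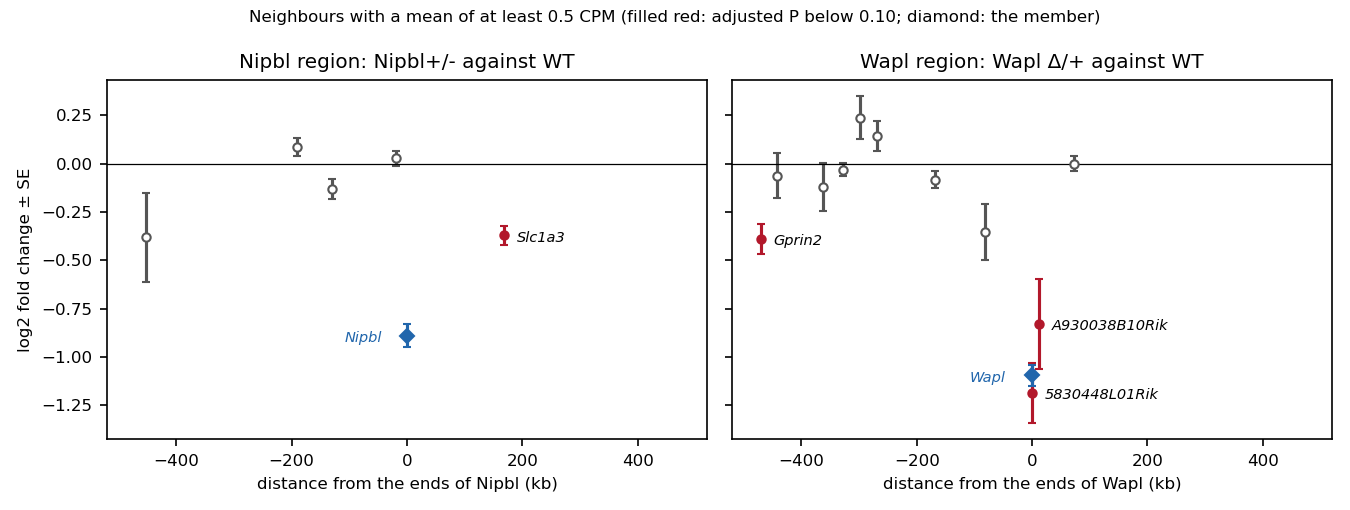
Log2 fold change ± SE of genes within 500 kb of Nipbl (left, Nipbl+/- against WT) and of Wapl (right, WaplΔ/+ against WT), against their distance from the ends of the member in kb; only genes averaging 0.5 CPM or more are plotted, filled red points have an adjusted P below 0.10, and the diamond is the member. Close to Wapl, 5830448L01Rik and A930038B10Rik lie at -1.18 and -0.83, while Slc1a3 at -0.37 is the called neighbour of Nipbl.

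Across libraries, after the mean of each group was removed, each member had genes that tracked it closely among the 14537 genes that averaged 100 or more normalized counts. These correlations are a description over 21 libraries that share sequencing and tissue composition. Pds5b was tracked most closely, by Edem3 and Fam120c (Pearson r of 0.97 for each), and Mau2 by Acvr2b and Mprip (0.94 for each). Nipbl was tracked by Sf3b1 (0.91) and Usp47 (0.90), Pds5a by Trim33 and Shprh (0.89 for each), and Wapl by Gna13 and Rc3h1 (0.86 for each). No member was among the 2 genes closest to another, though members also correlated with each other. Pearson r between members ran from 0.20 (Mau2 with Wapl) to 0.76 (Nipbl with Pds5a). Some pairs differed between the mt-Nd3 sets: Pds5a with Pds5b was at 0.85 in the low and 0.11 in the high set, and Wapl with Pds5b at 0.75 and 0.014. Others did not, such as Nipbl with Wapl (0.72 and 0.85) and Nipbl with Pds5a (0.79 and 0.70).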

How the data were processed

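Whole-brain RNA with integrity numbers above 9.0, per the labels, was purified with oligo-d(T) and sequenced as 101-base paired-end reads. The authors trimmed reads with cutadapt 2.4, mapped them with STAR 2.5.3a to mm10 (GRCm38.p6) and deposited raw read counts per gene made with featureCounts (Subread 1.6.4). The annotation release and the strand setting are not given in the sources used here. A further Nipbl+/- library was not analysed here.

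Genes whose normalized counts summed to 10 or more over the libraries were tested (30534 of 55335). Each comparison was fitted on its own groups, and the interaction on all 4, with edgeR 4.0.16 in R 4.3.3 (TMM scaling, quasi-likelihood test, Benjamini-Hochberg adjustment, calls below 0.10, the threshold the authors used). Intervals are 95% intervals of the fitted fold change. Ratios of counts were compared with two-sided exact permutation tests (SciPy) and adjusted over 24 tests, many of which follow from the genotypes. Each member value rests on 582 to 5488 reads. Within groups, libraries differed by more than counting noise (chi-square per degree of freedom of at least 2.41), so none was taken as a duplicate. Labels do not say which embryos were littermates, and P values measure the spread between embryos as deposited.

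The members, gene lists and tests were chosen with earlier results of these data known. Besides the members, the text names pathway genes called in a comparison with WT, neighbours within 500 kb that were called against WT or overlap a member, and the 2 genes most like each member. Alternatives were DESeq2 1.42.0, its size factors, other filters, a threshold of 0.05, 1 fit of all groups, a replicate block, mt-Nd3 sets and leaving out each library. The fits were tested on simulated data.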

Additional observations from a re-analysis of the deposited data

Results flagged for a closer look

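In 27 checks of the members' levels and ratios within groups of 4 to 10 libraries, 2 values stood apart from the rest of their group by Dixon's criterion, and chance alone flags about 1 group in 20. In WT, Mau2 was at 146.9 CPM in replicate 3, against 153 to 155 CPM in the other 4, so that the gap was 0.733 of the range, above the critical value of 0.710. Among the double heterozygotes, the ratio of Wapl to Nipbl counts was 0.591 in replicate 1, against 0.621 to 0.633 in the other 5 (gap over range 0.702, critical value 0.625). Without that library the log2 difference of this ratio from WT was -0.14.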

How the results depend on the processing

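Each result was recomputed under the alternative settings listed above. The high mt-Nd3 set could not be fitted where Nipbl+/- was involved, since it held no such library. In Nipbl+/- against WT, Nipbl and Pds5b stayed called under all 9 such settings and without each of 8 libraries, with Pds5b between -0.41 and -0.27 on the log2 scale (highest edgeR adjusted P 0.0074). Wapl in WaplΔ/+ against WT did so too.

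Within the high mt-Nd3 libraries, 2 against 2, the double heterozygotes against WT had 0 members called, with log2 fold changes of -0.82 for Nipbl and -0.95 for Wapl (edgeR adjusted P = 0.223 and 0.166), on fewer samples; both had an unadjusted P below 0.05, and DESeq2 called both. There Mau2 was at -0.040 and Pds5a at 0.0098. Other signs that turned in mt-Nd3 fits were all of uncalled values: in WaplΔ/+ against WT, Mau2 (0.026, low set), Pds5a (0.016, high set), Pds5b (0.0096, high set) and the log2 ratio of Nipbl to Mau2 (-0.054, low set); in double heterozygotes against WaplΔ/+, Pds5a (-0.020, high set) and Pds5b (0.015, low set); and in Nipbl+/- against WaplΔ/+, Mau2 (-0.028 with the set as a term, -0.024 in the low set). The cause was not tested.

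Pds5b in Nipbl+/- against WaplΔ/+ passed the threshold with DESeq2 (-0.273), with no filter (-0.267), in 1 fit of all groups (-0.274) and with the replicate block (-0.236). DESeq2 called 1 member in the interaction, Pds5b (0.288). With the replicate block, Pds5b was called in double heterozygotes against Nipbl+/- (0.214), making 2 members called. In the same replicate block fits, Pds5a in double heterozygotes against WT was 0.00069, and the log2 ratio of Wapl to Pds5a plus Pds5b in double heterozygotes minus WaplΔ/+ was 0.0788, with an exact P above 0.05. Same-numbered libraries correlated between -0.27 and 0.45, and the labels give the numbers no meaning, so the block was not the main fit.

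Leaving out 1 library at a time gave these ranges where a sign or call changed. On the log2 scale in Nipbl+/- against WT, Mau2 ranged from -0.047 to 0.015. In WaplΔ/+ against WT, Nipbl ranged from -0.049 to 0.0084, Mau2 from -0.15 to -0.082, and members called from 1 to 2. In double heterozygotes against WT, Pds5a ranged from -0.019 to 0.017 and Pds5b from -0.15 to -0.10. Nipbl in double heterozygotes against Nipbl+/- ranged from -0.022 to 0.083, and Pds5b in Nipbl+/- against WaplΔ/+ from -0.32 to -0.20, called without WaplΔ/+ replicate 1 or Nipbl+/- replicate 2 (edgeR adjusted P = 0.0136 and 0.0965). Among the log2 ratios, Nipbl to Mau2 ranged from 0.062 to 0.12 for WaplΔ/+ minus WT and from -0.084 to 0.0030 for double heterozygotes minus Nipbl+/-. Wapl to Pds5a plus Pds5b ranged from 0.079 to 0.13 for double heterozygotes minus WaplΔ/+. Pds5a to Pds5b ranged from 0.068 to 0.11 for double heterozygotes minus WaplΔ/+ and from 0.17 to 0.29 for Nipbl+/- minus WaplΔ/+.

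The number of genes called in all moved more. WaplΔ/+ against WT had 676 calls, but 8 in 1 fit of all groups, 1449 with DESeq2 and 1989 with the replicate block. It had 9 to 440 without any 1 of WT replicates 1, 2, 4 and 5 or WaplΔ/+ replicates 1, 4 and 5, and 1534 without WaplΔ/+ replicate 2. Nipbl+/- against WT had 3419, 1536 in 1 fit of all groups and 1829 without Nipbl+/- replicate 1. Double heterozygotes against WT had 1000, but 1 in the high mt-Nd3 set, 454 to 631 without any 1 of WT replicates 1 to 4 or double heterozygotes 1 and 4, and 1685 and 2507 without double heterozygotes 3 and 5. Against WaplΔ/+ they had 318, but 19 to 162 in the mt-Nd3 fits. They had 163 to 203 without WaplΔ/+ replicate 3 or 4 or double heterozygote 1 or 4. Nipbl+/- against WaplΔ/+ had 360, with 69 to 236 without Nipbl+/- replicate 1 or 3 or WaplΔ/+ replicate 3 or 6, and 600 without WaplΔ/+ replicate 1.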
